A study of Drosophila melanogaster with 13 samples.

Results

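The 8 genes described here, alrm, Eaat1, Gat, Gabat, Gs2, repo, moody and nrv2, mark glia of the fly brain or serve the glial uptake and breakdown of transmitters. They were taken by symbol from the 18344 genes of the deposited tables, and all 8 were among the 10038 genes with a mean of at least 1 FPKM that entered the test. FPKM is a count of sequenced fragments scaled to gene length and to the size of the library. RNA came from heads of Drosophila melanogaster adults aged 5 days from crosses kept at 25 °C. The 5 Rab5 RNAi libraries have the genotype GMR-Gal4/UAS-Rab5 RNAi, the 4 libraries labelled Rab7 RNAi have GMR-Gal4/UAS-Rab7 RNAi, and the 4 control libraries have GMR-Gal4/WT. All 3 groups thus carry GMR-Gal4, which drives expression in the developing and the adult eye, so that neither RNAi is aimed at brain glia as a whole. Each RNAi group is set against 1 control genotype, so the effect of an RNAi and that of its line's background cannot be told apart. Separate crosses or flies are not stated for the samples of a group, and p-values then measure a spread between samples that could be technical.

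Glia take up glutamate and GABA released at synapses and turn them into compounds that neurons can use again. In the fly brain the astrocyte-like glia, whose processes enter the neuropil, carry most of this uptake, while subperineurial glia seal the brain with septate junctions and form the blood-brain barrier. The homeodomain protein Repo is made by nearly all glia outside the midline and is needed for their differentiation.

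Rab5, the GTPase of early endosomes, averaged 57.7 ± 5.56 FPKM in Rab5 RNAi heads (SD, n = 5) and 115.5 ± 4.54 FPKM in controls (SD, n = 4), a log2 difference of -0.99 (SE 0.09, limma adjusted p = 1.9e-05). Rab7, the GTPase of late endosomes, averaged 97.7 ± 9.54 FPKM in the heads with that label and 99.97 ± 3.93 FPKM in controls (SD, n = 4 each). The log2 difference was -0.04 (95% interval -0.21 to 0.13, adjusted p = 0.88). Rab7 therefore did not check the label of those 4 libraries, which are called Rab7-labelled below. All 8 neuron markers and all 10 photoreceptor markers were above 0 in every library.

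Libraries of 1 group did not all lie together. Group means were removed from all genes tested, and the leading axis of what remained held 35.3% of the residual variance. On it Rab5 RNAi replicates 1 and 5 scored 0.48 and 0.53. Rab5 RNAi replicates 2, 3 and 4 scored -0.38, -0.33 and -0.30. Rab7-labelled replicates 1 and 4 were on the positive side, at 0.17 and 0.18, and replicates 2 and 3 on the negative side, at -0.17 and -0.18. The controls scored between -0.09 and 0.11. The summed level of 7 muscle markers was 3801 and 3714 FPKM in Rab5 RNAi replicates 1 and 5 and 2028 to 2319 FPKM in replicates 2, 3 and 4, against 2267 to 3641 FPKM in controls. The summed level of 10 photoreceptor markers was 2008 and 1630 FPKM in Rab5 RNAi replicates 1 and 5 and 6364 to 8550 FPKM in replicates 2, 3 and 4. In Rab7-labelled replicates 1 and 4 the muscle sum was 3630 and 3723 FPKM and the photoreceptor sum 17513 and 18217 FPKM. In Rab7-labelled replicates 2 and 3 the muscle sum was 1973 and 1969 FPKM and the photoreceptor sum 36163 and 39845 FPKM. The photoreceptor sum was 34220 to 44844 FPKM in controls. The labels give no batch, and results below are also given within the 7 libraries of negative score and the 6 of positive score. The axis was computed from these data with the 8 genes among all others, so the split is not a technical batch known from the labels. It also narrows the spread within each group by its own construction, for all genes, so differences and counts within it are given as descriptions of these libraries, with no p-value.

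Most of the 8 glial genes had lower levels in both RNAi groups than in controls, and moody was the exception. Against control, alrm and Gabat fell in Rab5 RNAi heads, and Gat and Gabat fell in Rab7-labelled heads, at an adjusted p below 0.05 in a limma fit over all genes tested. These are 2 of 8 genes lower and 0 higher in each comparison. Over all genes, 9.28% were called lower and 8.26% higher in Rab5 RNAi against control (17.5% in either direction), and 1.56% were called lower and 1.64% higher in Rab7-labelled against control (3.21% in either direction). The median log2 difference of the 8 genes was -0.31 in Rab5 RNAi heads and -0.49 in Rab7-labelled heads, beside -0.01 over all genes in both comparisons. All log2 differences are of log2(FPKM + 1), RNAi minus control, and both comparisons share the 4 control libraries. The 8 genes were chosen with earlier results of these data known, so their counts and medians are not independent evidence of a direction. In RNA from whole heads, fewer glia and less of an RNA per glial cell cannot be told apart.

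**Figure D1:**
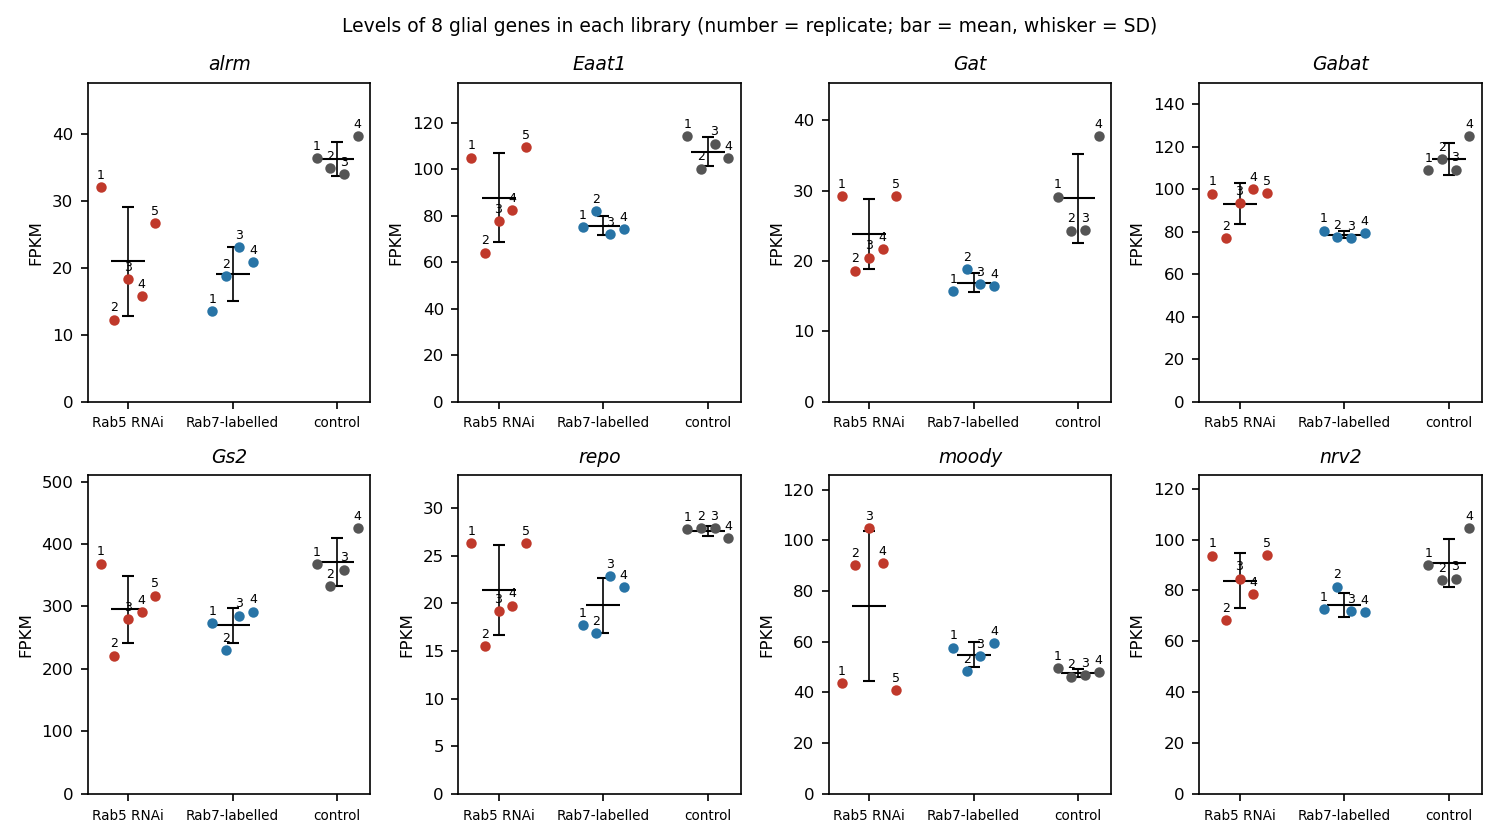
FPKM (vertical axes, from 0) of the 8 glial genes in each Rab5 RNAi (n = 5), Rab7-labelled (n = 4) and control (n = 4) library; points carry their replicate number, bars are group means and whiskers are SD. Rab5 RNAi replicates 2, 3 and 4 lie below replicates 1 and 5 for alrm, Eaat1, Gat, Gs2, repo and nrv2, and above them for moody.

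Of the 2 transporters, Gat fell in Rab7-labelled heads and Eaat1 was called in neither comparison. Gat, the GABA transporter of astrocyte-like glia (FBgn0039915, chromosome 4, 629691 to 635350, plus strand), had 29.2, 18.6, 20.5, 21.6 and 29.2 FPKM in Rab5 RNAi replicates 1 to 5. It had 15.7, 18.8, 16.7 and 16.4 FPKM in Rab7-labelled replicates 1 to 4 and 29.2, 24.3, 24.4 and 37.8 FPKM in control replicates 1 to 4. All Rab7-labelled libraries were below all controls, whereas Rab5 RNAi replicates 1 and 5 were within the control range and replicates 2, 3 and 4 below it. Gat fell by 0.72 on the log2 scale in Rab7-labelled heads (SE 0.16, adjusted p = 0.0280), and its difference in Rab5 RNAi heads was -0.27 (SE 0.15, adjusted p = 0.257). The Rab7-labelled call was lost without Rab7-labelled replicate 1, 3 or 4 or control replicate 1 or 4 (adjusted p = 0.0571 to 0.0863). Within the negative-score libraries the difference was -0.44.

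Eaat1, the glutamate transporter of glia (FBgn0026439, 2L, 9333567 to 9341925, plus strand), had 105, 64.2, 77.5, 82.5 and 109.6 FPKM in Rab5 RNAi replicates 1 to 5. It had 75.2, 81.8, 72.0 and 74.1 FPKM in Rab7-labelled replicates 1 to 4 and 114, 100.2, 111 and 105 FPKM in control replicates 1 to 4. Rab5 RNAi replicates 1 and 5 were among the controls, and replicates 2, 3 and 4 and every Rab7-labelled library were below them. The log2 difference was -0.32 in Rab5 RNAi heads (SE 0.13, adjusted p = 0.123) and -0.50 in Rab7-labelled heads (SE 0.14, adjusted p = 0.0732), so Eaat1 was called in neither. Eaat1 was called lower under 4 of 23 alternatives in Rab5 RNAi and under 6 in Rab7-labelled heads, those made from the residual axis included. With the 2 groups alone the adjusted p was 0.00567 in Rab7-labelled heads, at the same log2 difference of -0.50. That fit takes the spread from those 2 groups, without the Rab5 RNAi libraries. The Rab5 RNAi difference was -0.50 within the negative-score libraries and -0.03 within the positive-score ones.

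Both enzymes of transmitter turnover were below controls on average. Gabat, the GABA transaminase that begins the breakdown of GABA (FBgn0036927, 3L, 19997714 to 20000686, minus strand), had 97.9, 76.8, 93.4, 99.99 and 98.1 FPKM in Rab5 RNAi replicates 1 to 5. It had 80.5, 77.3, 76.9 and 79.5 FPKM in Rab7-labelled replicates 1 to 4 and 109, 114, 109 and 125 FPKM in control replicates 1 to 4. No library of either RNAi group reached the lowest control, and the 4 Rab7-labelled libraries differed from each other by a coefficient of variation of 2.19%. Gabat fell by 0.30 on the log2 scale in Rab5 RNAi heads (SE 0.08, adjusted p = 0.0271) and by 0.53 in Rab7-labelled heads (SE 0.09, adjusted p = 0.00451). The Rab5 RNAi call was lost without control replicate 2 or 4 (adjusted p = 0.0640 and 0.0777), in a fit of those 2 groups alone (0.0602) and with plain read totals (0.138). Of 23 alternatives run, the Rab7-labelled call was lost under 1, that of the negative-score libraries, at a log2 difference of -0.53. Reads from Gabat may include some of Tom20, which overlaps it on the opposite strand, since the strand setting is not given; Tom20 was 57.4 to 81.8 FPKM in Rab5 RNAi, 67.5 to 79.3 FPKM in Rab7-labelled and 63.7 to 73.9 FPKM in control libraries, and was called in no comparison.

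Gs2, the glutamine synthetase that turns glutamate into glutamine (FBgn0001145, X, 11422832 to 11430197, plus strand), had 369, 221, 280.1, 291 and 317 FPKM in Rab5 RNAi replicates 1 to 5. It had 273, 229.6, 285 and 292 FPKM in Rab7-labelled replicates 1 to 4 and 368, 333, 359 and 425 FPKM in control replicates 1 to 4. Every Rab7-labelled library and Rab5 RNAi replicates 2 to 5 were below every control, and Rab5 RNAi replicate 1 was within the control range. The log2 differences, -0.34 in Rab5 RNAi (SE 0.13, adjusted p = 0.0985) and -0.46 in Rab7-labelled heads (SE 0.14, adjusted p = 0.1005), did not pass. Under 3 of 23 alternatives in Rab5 RNAi and 4 in Rab7-labelled heads Gs2 was called lower, those made from the residual axis included. In Rab7-labelled heads the adjusted p was 0.0413 with the 2 groups alone, at the same log2 difference of -0.46. Gs2 had the highest level per gene length of the 8 genes in every group, and its values did not overlap those of Gabat, the next in order.

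The largest average differences among the 8 genes were those of alrm, a leucine-rich repeat gene used to mark astrocyte-like glia (FBgn0039332, 3R, 25381065 to 25382781, minus strand). It had 32.0, 12.2, 18.3, 15.7 and 26.6 FPKM in Rab5 RNAi replicates 1 to 5, 13.5, 18.8, 23.0 and 20.8 FPKM in Rab7-labelled replicates 1 to 4, and 36.4, 34.8, 34.0 and 39.6 FPKM in control replicates 1 to 4. Neither RNAi group overlapped the controls, and Rab5 RNAi replicates 1 and 5 came nearest to them. alrm averaged 21.0 ± 8.11 FPKM in Rab5 RNAi (SD, n = 5) and 19.0 ± 4.05 FPKM in Rab7-labelled heads (SD, n = 4), against 36.2 ± 2.49 FPKM in controls (SD, n = 4). It fell by 0.84 on the log2 scale in Rab5 RNAi heads (SE 0.23, adjusted p = 0.0245), and its difference in Rab7-labelled heads was -0.92 (SE 0.24, adjusted p = 0.0613). The Rab5 RNAi call was lost without Rab5 RNAi replicate 4 or any 1 control (adjusted p = 0.0511 to 0.0603). In Rab7-labelled heads alrm was called lower under 5 of 23 alternatives, those made from the residual axis included. The 2 groups alone gave an adjusted p of 0.00695 there, at the same log2 difference of -0.92. Within the negative-score libraries the Rab5 RNAi difference was -1.13, and within the positive-score libraries -0.37. alrm lies within Fur1, a proprotein convertase gene read from the same strand; Fur1 was 13.6 to 15.2 FPKM in Rab5 RNAi, 14.4 to 16.5 FPKM in Rab7-labelled and 13.8 to 16.8 FPKM in control libraries and was called in no comparison.

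repo, the glial homeodomain gene (FBgn0011701, 3R, 18236192 to 18239602, plus strand), had 26.3, 15.5, 19.2, 19.8 and 26.3 FPKM in Rab5 RNAi replicates 1 to 5. It had 17.8, 16.9, 22.8 and 21.7 FPKM in Rab7-labelled replicates 1 to 4 and 27.8, 27.9, 27.9 and 26.8 FPKM in control replicates 1 to 4. All libraries of both RNAi groups were below all controls, which spanned little more than 1 FPKM, although Rab5 RNAi replicates 1 and 5 were close to the lowest control. The log2 differences, -0.38 in Rab5 RNAi (SE 0.14, adjusted p = 0.0817) and -0.47 in Rab7-labelled heads (SE 0.15, adjusted p = 0.105), did not pass. repo was called lower under 5 of 23 alternatives in Rab5 RNAi and 2 in Rab7-labelled heads, those made from the residual axis included. With the 2 groups alone its adjusted p in Rab7-labelled heads was 0.0233, at the same log2 difference of -0.47. CG7156 overlaps repo on the opposite strand, had 7.48 to 9.35 FPKM over all libraries and was called in no comparison.

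nrv2, a beta subunit of the sodium pump whose promoter is used to drive expression in glia (FBgn0015777, 2L, 6789770 to 6798862, minus strand), had 93.7, 68.3, 84.6, 78.4 and 93.9 FPKM in Rab5 RNAi replicates 1 to 5. It had 72.6, 81.5, 71.8 and 71.4 FPKM in Rab7-labelled replicates 1 to 4 and 90.0, 83.9, 84.6 and 104 FPKM in control replicates 1 to 4. The Rab5 RNAi libraries overlapped the controls, and the Rab7-labelled libraries were all below them. The log2 difference was -0.12 in Rab5 RNAi (SE 0.10, adjusted p = 0.483) and -0.28 in Rab7-labelled heads (SE 0.11, adjusted p = 0.193).

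**Figure D2:**
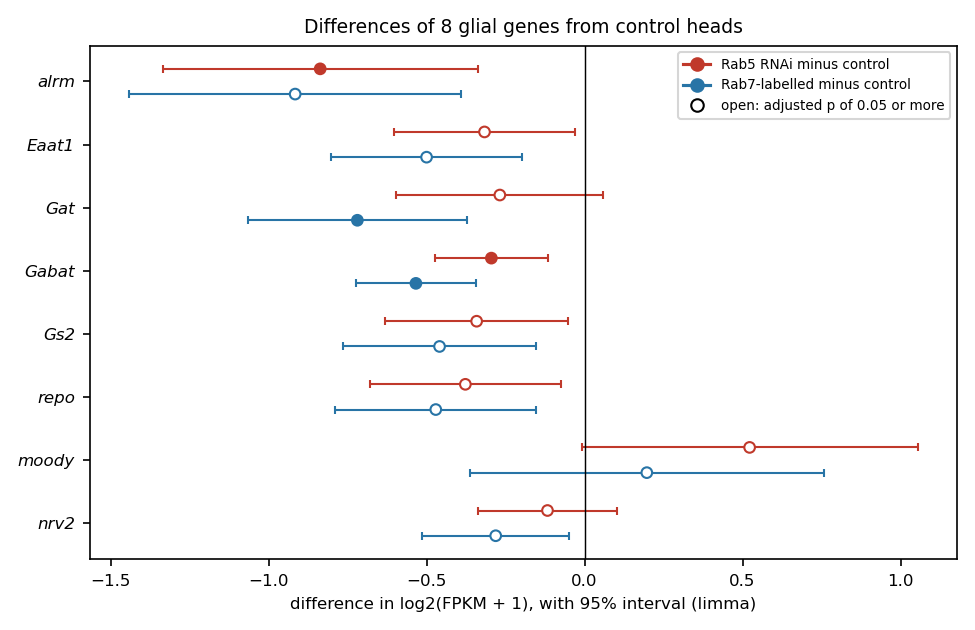
Differences in log2(FPKM + 1) from control (horizontal axis) of the 8 glial genes in Rab5 RNAi (n = 5) and Rab7-labelled heads (n = 4; control n = 4), with 95% intervals from limma; filled points have an adjusted p below 0.05. Only alrm and Gabat in Rab5 RNAi and Gat and Gabat in Rab7-labelled heads are filled, and moody alone lies above 0.

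Counted by library, 7 of the 8 genes were lower in all 4 Rab7-labelled libraries than in any control, where 6.89% of all genes were lower without overlap and 6.87% higher. In Rab5 RNAi, alrm, Gabat and repo did so, 3 of 8 genes, where 9.69% of all genes were lower without overlap and 8.93% higher. These counts describe a set of genes chosen with earlier results of these data known, and the genes are read in the same libraries. They are therefore not a test of the set. At an unadjusted p below 0.05 there were 5 of the 8 genes in Rab5 RNAi and 7 of 8 in Rab7-labelled heads, beside 3088 and 1736 of the 10038 genes tested. The count of called glial genes in Rab5 RNAi against control was 4 within the negative-score libraries, where 17.9% of all genes were called (1801 of 10038), and 0 within the positive-score ones, where 10.8% were called (1088 of 10038). Of the 4 within the negative-score libraries, moody was higher and alrm, Eaat1 and repo were lower. In Rab7-labelled against control the count was 0 within the negative-score libraries, beside 2.60% of all genes (261). It was 4, all lower, within the positive-score libraries, beside 4.15% (417), with 2 libraries in each group there. In each comparison the 8 genes and all genes had fewer calls on the same side of the split. The split was made from these same data and leaves few libraries per group. These counts therefore describe the libraries, and nothing is concluded from them.

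moody, a G protein-coupled receptor of the subperineurial glia that is needed for the blood-brain barrier (FBgn0025631, X, 2044292 to 2050120, minus strand), went the other way in some libraries. It had 43.8, 90.2, 104.7, 91.0 and 41.0 FPKM in Rab5 RNAi replicates 1 to 5. It had 57.7, 48.5, 54.2 and 59.4 FPKM in Rab7-labelled replicates 1 to 4 and 49.7, 46.3, 46.8 and 48.0 FPKM in control replicates 1 to 4. Rab5 RNAi replicates 2, 3 and 4 were far above every other library, and replicates 1 and 5 were below every control. The coefficient of variation was 39.9% in Rab5 RNAi, 8.76% in Rab7-labelled and 3.16% in control heads. The log2 difference was 0.52 in Rab5 RNAi (SE 0.25, adjusted p = 0.1701) and 0.20 in Rab7-labelled heads (SE 0.26, adjusted p = 0.781), so moody was called in neither.

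Within the negative-score libraries moody was higher in Rab5 RNAi than in control by 1.02 on the log2 scale, and within the positive-score libraries the difference was -0.20. Among the Rab5 RNAi libraries the split is the one that moody itself shows. In the other groups moody lay the other way, at 57.7 and 59.4 FPKM in positive-score and 48.5 and 54.2 FPKM in negative-score Rab7-labelled libraries, and at 48.0 and 49.7 FPKM in positive-score and 46.3 and 46.8 FPKM in negative-score controls. The muscle and photoreceptor sums move with the split both in Rab5 RNAi and in Rab7-labelled heads, and their part in it was not tested. CG4313 overlaps moody on the opposite strand and did not share its split: it had 8.20, 9.12, 8.17, 9.72 and 8.82 FPKM in Rab5 RNAi replicates 1 to 5, 7.31 to 8.61 FPKM in Rab7-labelled and 8.35 to 13.2 FPKM in control libraries.

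**Figure D3:**
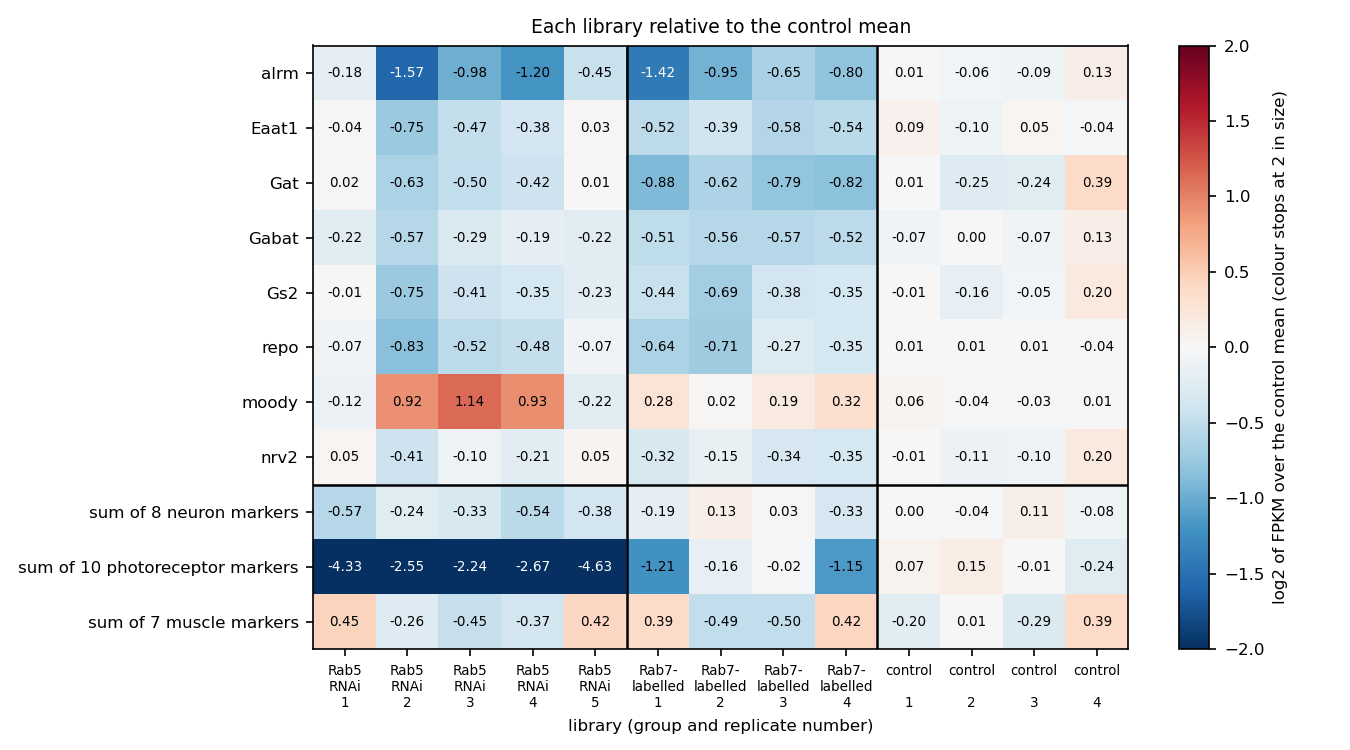
The log2 of FPKM over the control mean (colour and printed value) for the 8 glial genes and for 3 summed marker lists, in each Rab5 RNAi, Rab7-labelled and control library (columns, by replicate number). In Rab5 RNAi replicates 2, 3 and 4 moody stands at 0.92, 1.14 and 0.93 while alrm stands at -1.57, -0.98 and -1.20; in replicates 1 and 5 moody stands at -0.12 and -0.22 and the muscle sum at 0.45 and 0.42.

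Between the RNAi groups no call was made among the 8 genes. All 8 genes were higher on average in Rab5 RNAi than in Rab7-labelled heads, with a median log2 difference of 0.17 beside 0.01 over all genes. Over all genes, 4.67% were called higher, 6.4% lower and 11.1% in either direction, and 2571 of 10038 had an unadjusted p below 0.05, beside 2 of the 8 (Gat and Gabat). The largest of the 8 differences was that of Gat, 0.45 (SE 0.15, 95% interval 0.12 to 0.78, adjusted p = 0.0756), followed by moody at 0.33 (SE 0.25, adjusted p = 0.450) and Gabat at 0.24 (SE 0.08, adjusted p = 0.0855). For alrm the difference was 0.08 with a 95% interval of -0.42 to 0.58, which allows a difference in either direction. No gene of the 8 had groups without overlap, beside 4.98% of all genes higher and 6.57% lower without overlap. Under plain read totals, which move the median of all genes by 0.11 in this comparison, Gat and Gabat were called higher in Rab5 RNAi (adjusted p = 0.0291 and 0.0219). In that setting 1218 of 10038 genes were called higher, and 16.4% in either direction.

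The order of levels per gene length was nearly the same in the 3 groups, with Gs2 first, then Gabat, Eaat1, nrv2 and moody, and the lowest places taken by Gat, repo and alrm. In Rab5 RNAi heads, neighbours in this order overlapped from Gabat through moody. In Rab7-labelled heads and in controls Gabat overlapped Eaat1 and Eaat1 overlapped nrv2, and moody stood apart between nrv2 and the low genes. Among Gat, repo and alrm, neighbours in the order overlapped in each group, with alrm last of the 3 in Rab5 RNAi, Gat last in Rab7-labelled and repo last in control heads. Gs2 averaged 295.6 ± 53.9 FPKM in Rab5 RNAi (SD, n = 5), 269.9 ± 28.0 FPKM in Rab7-labelled and 371 ± 38.8 FPKM in control heads (SD, n = 4 each). Between 378 reads (alrm) and 16503 reads (Gs2) lay behind each value of the 8 genes in 1 library.

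For each of the 8 genes, the gene with the most alike profile over the 13 libraries was looked up. Likeness was the root mean square difference of log2(FPKM + 1) profiles, each centred on its own mean, with low values for like profiles. For Eaat1 the nearest gene was Gfat1, which encodes the enzyme that begins the hexosamine pathway from glutamine (0.101). For alrm it was Cpr47Ee (0.229), for Gat CG7888 (0.155), for Gabat CG31663 (0.104), for Gs2 CG1358 (0.0974), for repo CG4829 (0.111) and for nrv2 CG5758 (0.0735). Among the 8 genes themselves, Gs2 and repo were nearest to each other (0.118), and Gs2 ranked 3 among all genes by likeness to repo. Genes chosen in this way share the group differences of their partner by that choice, so those differences are not tested.

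The profile of moody was unlike those of the other 7. Its nearest gene was Rcd6 (0.114), which had 4.86, 10.1, 11.4, 10.7 and 4.09 FPKM in Rab5 RNAi replicates 1 to 5, 5.98 to 7.27 FPKM in Rab7-labelled libraries and 4.43 to 4.56 FPKM in controls. Rcd6 was also high in Rab5 RNAi replicates 2, 3 and 4, as its choice by likeness requires. The nearest of the other glial genes, nrv2, ranked 7267 (0.528).

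Most genes listed for septate junctions or for the barrier that moody serves were higher in Rab5 RNAi heads, while the listed barrier genes Mdr65 and Tret1-1 were not called. Of 18 listed genes of the blood-brain barrier and of septate junctions, which also join epithelial cells outside the brain, 13 rose and 0 fell against control, with a median log2 difference of 0.50 beside -0.01 over all genes, of which 8.26% were called higher and 9.28% lower. The list was chosen with earlier results of these data known and is not independent evidence of its direction. In Rab7-labelled heads 1 of 18, cold, rose and 0 fell, with a median of 0.10, beside 1.64% of all genes higher and 1.56% lower. In Rab5 RNAi against Rab7-labelled heads 6 rose and 0 fell, with a median of 0.38, beside 4.67% of all genes higher and 6.4% lower. The Rab5 RNAi count was 12 within the negative-score and 10 within the positive-score libraries, where 17.9% and 10.8% of all genes were called in either direction.

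sinu, a claudin-like protein of septate junctions, had 25.1, 42.1, 35.9, 41.4 and 27.5 FPKM in Rab5 RNAi replicates 1 to 5, 21.0, 17.8, 14.1 and 19.3 FPKM in Rab7-labelled replicates 1 to 4, and 15.4, 12.997, 14.8 and 15.3 FPKM in control replicates 1 to 4. Every Rab5 RNAi library was above every other library, with replicates 1 and 5 again apart from 2, 3 and 4. It rose by 1.154 on the log2 scale in Rab5 RNAi against control (SE 0.15, adjusted p = 0.000238) and by 0.88 against Rab7-labelled heads (SE 0.15, adjusted p = 0.00255). cold and bou, Ly6 proteins needed for septate junctions to form, rose by 0.84 (SE 0.11, adjusted p = 0.000165) and 1.02 (SE 0.16, adjusted p = 0.000716) in Rab5 RNAi. cold also rose by 0.60 in Rab7-labelled heads (SE 0.11, adjusted p = 0.00933), where it had 37.7, 36.2, 28.0 and 36.1 FPKM against 20.6, 21.2, 21.0 and 26.6 FPKM in controls. loco, a regulator of G protein signalling that acts with Moody at the barrier, had 12.4, 11.9, 15.8, 13.2 and 12.3 FPKM in Rab5 RNAi replicates 1 to 5, against 8.51 to 8.99 FPKM in controls. It was above control in 5 of 5 Rab5 RNAi libraries, without the split that moody shows, and rose by 0.52 (SE 0.08, adjusted p = 0.000821). The 5 listed genes that did not pass in Rab5 RNAi were Nrg, Mdr65, Tret1-1, vari and Galphao, at log2 differences of -0.13 (vari) to 0.23 (Nrg).

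**Figure D4:**
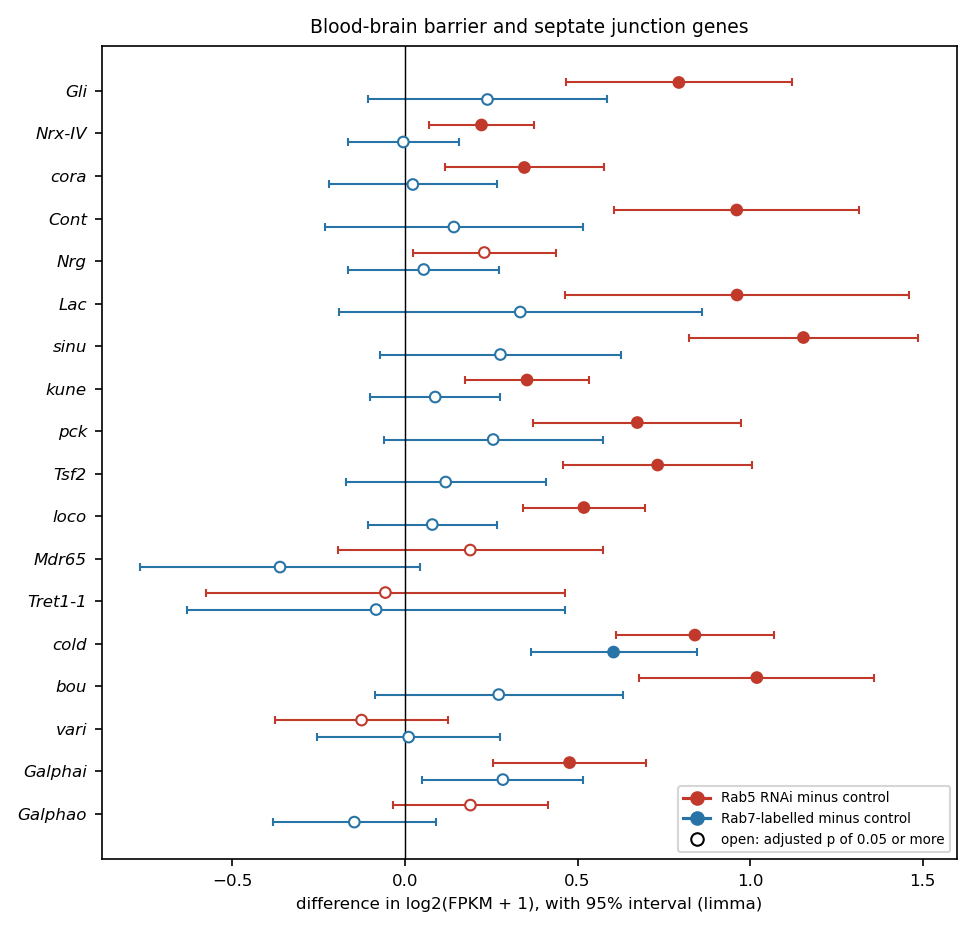
Differences in log2(FPKM + 1) from control (horizontal axis) of 18 blood-brain barrier and septate junction genes in Rab5 RNAi (n = 5) and Rab7-labelled heads (n = 4; control n = 4), with 95% intervals from limma; filled points have an adjusted p below 0.05. In Rab5 RNAi 13 of 18 are filled and all 13 lie above 0, and in Rab7-labelled heads only cold is filled.

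Of 11 other listed genes used by glial subtypes, 1 rose and 3 fell in Rab5 RNAi against control, beside 8.26% of all genes higher and 9.28% lower. In Rab7-labelled heads 0 rose and 2 fell, beside 1.64% of all genes higher and 1.56% lower. Between the RNAi groups 1 rose and 0 fell, beside 4.67% of all genes higher and 6.4% lower. With so few genes these counts are read for the named genes and not for the list. Those that fell in Rab7-labelled heads were CG9657 and wun2 (-0.67, SE 0.15, adjusted p = 0.0260). The gene that rose between the RNAi groups was htl (0.31, SE 0.09, adjusted p = 0.0489). Eaat2, the transporter related to Eaat1, had 48.7, 74.6, 74.4, 68.0 and 49.3 FPKM in Rab5 RNAi replicates 1 to 5, 66.8, 98.5, 98.4 and 68.9 FPKM in Rab7-labelled replicates 1 to 4, and 121, 114, 126 and 99.9 FPKM in control replicates 1 to 4. It fell by 0.88 in Rab5 RNAi (SE 0.16, adjusted p = 0.00261), lowest in replicates 1 and 5, in which Eaat1 was highest. CG9657 fell by 0.74 in Rab5 RNAi (SE 0.13, adjusted p = 0.00181) and by 0.86 in Rab7-labelled heads (SE 0.14, adjusted p = 0.00399). ine, a transporter of the sodium- and chloride-dependent transmitter family, fell by 0.47 (SE 0.11, adjusted p = 0.00918), and drpr, the receptor by which glia engulf debris, rose by 0.40 (SE 0.10, adjusted p = 0.0131) in Rab5 RNAi. Of 4 listed genes of glial fate, the 2 that entered the test (pnt and ttk) were called in no comparison.

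Among genes that make or consume glutamate and GABA outside the 8, 1 of 7 fell and 0 rose in Rab5 RNAi against control. In Rab7-labelled heads 0 of 7 were called, beside 3.21% of all genes in either direction. With 9.28% of all genes called lower and 8.26% higher in Rab5 RNAi against control, 1 call in a direction, which is all that this list and the transmission, ion transport and lipid lists had there, is no result about those lists. The 1 was Gdh, the mitochondrial glutamate dehydrogenase, with 170.4, 171, 217, 218 and 159 FPKM in Rab5 RNAi replicates 1 to 5, 287, 419, 518 and 312 FPKM in Rab7-labelled replicates 1 to 4, and 439, 461, 415 and 352 FPKM in control replicates 1 to 4. All Rab5 RNAi libraries were below all others, and Gdh fell by 1.16 on the log2 scale against control (SE 0.17, adjusted p = 0.000447) and by 1.01 against Rab7-labelled heads (SE 0.17, adjusted p = 0.00184). Of 14 genes of glutamate and GABA release and reception, 1 rose and 1 fell in Rab5 RNAi. In Rab7-labelled heads and between the RNAi groups 0 were called, beside 3.21% and 11.1% of all genes in either direction. The genes called in Rab5 RNAi were subunits of the GABA receptor family, Lcch3 at 0.28 (SE 0.08, adjusted p = 0.0313) and Grd at -0.40 (SE 0.12, adjusted p = 0.0359).

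Of 9 other genes of the sodium pump and of ion transport, 1 fell in Rab5 RNAi and 2 fell in Rab7-labelled heads, beside 1.56% of all genes. Between the RNAi groups 1 rose and 1 fell, beside 4.67% of all genes higher and 6.4% lower. Ndae1, a sodium-driven anion exchanger, fell by 0.995 in Rab5 RNAi (SE 0.10, adjusted p = 4.2e-05), with 12.5 to 18.8 FPKM there against 30.2 to 35.2 FPKM in controls. Irk2, an inward rectifier potassium channel, had 31.9, 34.0, 32.2 and 35.1 FPKM in Rab7-labelled replicates 1 to 4, against 50.7, 48.7, 47.6 and 59.9 FPKM in control replicates 1 to 4, and fell by 0.62 (SE 0.10, adjusted p = 0.00350). NKCC, a cation-chloride cotransporter, fell by 0.56 in Rab7-labelled heads (SE 0.14, adjusted p = 0.0449). Of 7 genes of glial lipid and lactate metabolism, 6 entered the test. The lipocalin gene NLaz rose by 0.53 in Rab5 RNAi against control (SE 0.08, adjusted p = 0.000941) and by 0.54 against Rab7-labelled heads (SE 0.08, adjusted p = 0.00122), and fabp, a fatty acid-binding protein, fell by 0.73 against Rab7-labelled heads (SE 0.15, adjusted p = 0.00590).

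Markers of other cell types gave these values beside the glial genes. The summed level of 8 neuron markers was 489 to 613 FPKM in Rab5 RNAi, 578 to 795 FPKM in Rab7-labelled and 685 to 785 FPKM in control libraries, and 2 of 8 neuron markers fell in Rab5 RNAi and 0 of 8 in Rab7-labelled heads. All 10 photoreceptor markers fell in Rab5 RNAi and 0 of 10 passed in Rab7-labelled heads. None of 7 muscle markers passed in any comparison, 3 of the 4 fat body markers tested (of 6 listed) fell in Rab5 RNAi, and 4 of 6 hemocyte markers fell in Rab7-labelled heads. Over all genes, 9.28% were called lower and 8.26% higher in Rab5 RNAi against control. In Rab7-labelled heads against control these shares were 1.56% and 1.64%. The marker lists were chosen with earlier results of these data known. No listed marker was at 0 in every library of a group. The part of these cell types in the glial values was not tested.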

How the data were processed

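Head RNA was sequenced in 13 libraries, for which the labels' protocols name a SMARTer kit. The authors deposited FPKM per gene and library. CASAVA is the tool in the submitters' processing notes; no aligner, counter, strand setting or genome build is given in the sources used here. Coordinates are those of the deposited table, and 13 columns of per-sample values there were not used. FPKM times gene length moved in steps of 1 read, and whole reads were recovered within 0.05 for all 182918 values above 0. These reads ran from 17138630 to 21410768 per library. The deposited FPKM had already been scaled by median-of-ratios size factors.

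limma 3.58.1 (R 4.3.3, trend, robust) was fitted to log2(FPKM + 1) of the 10038 genes whose mean FPKM was 1 or more, on all 3 groups and without covariates. This scale understates changes of low genes. Calls have a Benjamini-Hochberg adjusted p below 0.05 over all genes tested. As an alternative, limma's voom was run on the recovered reads, where it called 1706, 326 and 1108 genes in Rab5 RNAi against control, Rab7-labelled against control and Rab5 RNAi against Rab7-labelled. The fit was tested on simulated data. These were independent counts with a single spread taken from the controls and with no shared residual axis. The simulation therefore does not cover that axis or the wider spread of some genes in Rab5 RNAi. The 8 genes, the related lists and the markers were chosen with earlier results of these data known. The genes named are the 8, up to 4 called genes per related list with the lowest adjusted p in any comparison, and for each of the 8 the most alike gene. Other genes named (the overlapping neighbours, Rab5, Rab7, the list members that did not pass, and wun2 and htl as further calls) were named for those reasons and not by that rule. Other settings tried were the pseudocount (0.1), no filter, plain read totals, limma without trend, the 2 groups alone, the replicate number as a block, the leading residual axis as a covariate and each library left out. Splitting the libraries by that axis was added after seeing the data.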

Additional observations from a re-analysis of the deposited data

Results flagged for a closer look

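For the 8 glial genes and the 16 genes named by rule from the related lists, 72 sets of 1 gene in 1 group were examined for a library far from the others of its group, and 7 were found, where chance gives about 1 in 20. Gabat was 76.8 FPKM in Rab5 RNAi replicate 2, below the 93.4 to 99.99 FPKM of the other 4. repo was 26.8 FPKM in control replicate 4, below the 27.8 to 27.9 FPKM of the other 3, a gap of about 1 FPKM. nrv2 was 81.5 FPKM in Rab7-labelled replicate 2, above the 71.4 to 72.6 FPKM of the other 3. cold was 28.0 FPKM in Rab7-labelled replicate 3, below the 36.1 to 37.7 FPKM of the others, and 26.6 FPKM in control replicate 4, above the 20.6 to 21.2 FPKM of the others. drpr was 45.5 FPKM in Rab5 RNAi replicate 3, above the 36.5 to 37.7 FPKM of the others. Lcch3 was 28.9 FPKM in Rab7-labelled replicate 2, above the 22.8 to 23.8 FPKM of the others. The levels of moody in Rab5 RNAi, split 3 against 2, did not meet this criterion for a single library.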

How the results depend on the processing

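Of 23 alternatives, 6 ended the call of alrm in Rab5 RNAi, 6 that of Gabat in Rab5 RNAi, 6 that of Gat in Rab7-labelled and 1 that of Gabat in Rab7-labelled heads. In Rab5 RNAi against control 2 were called, but 1 with plain read totals, 1 with the 2 groups alone, 6 with the residual axis as covariate, 4 and 0 within the negative-score and positive-score libraries, and 0 to 5 with 1 library left out: 4 or 5 without Rab5 RNAi replicate 1 or 5, 1 without Rab5 RNAi replicate 4 or control replicate 1 or 3, and 0 without control replicate 2 or 4. In Rab7-labelled against control 2 were called, but 6 with the 2 groups alone, 6 with the covariate, 0 and 4 within the negative-score and positive-score libraries, and 1 to 5 with 1 library left out: 5 without Rab5 RNAi replicate 2, a library outside that comparison, and 1 without Rab7-labelled replicate 1, 3 or 4 or control replicate 1 or 4. Between the RNAi groups 0 were called, but 2 with plain read totals, 2 with the covariate, 1 and 3 within the negative-score and positive-score libraries, and 0 to 2 with 1 library left out (2 without Rab5 RNAi replicate 2 and 1 without control replicate 4). Covariate and split came from the same data and narrow the spread within groups. Calls gained with them are no sign of stability. Fits of 2 groups kept log2 differences. No cause was tested.

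Over all genes, the 1761 calls of Rab5 RNAi against control became 2544 with the covariate. They became 1088 in positive-score libraries and 1176 to 1778 with 1 library left out. The 322 of Rab7-labelled against control became 559 with the 2 groups alone, 795 with the covariate and 167 to 381 with 1 library left out (at most 197 without Rab7-labelled replicate 1 or 4 or control replicate 1, 2 or 3). The 1111 between the RNAi groups became 682, 1890 and 725 to 1064 (725 without Rab7-labelled replicate 3). With plain read totals 67.5% of the calls in Rab5 RNAi against control were higher, in place of 47.1%, and 74.0% in Rab5 RNAi against Rab7-labelled, in place of 42.2%. The median of all genes was then 0.07 and 0.11. The 13 barrier genes of Rab5 RNAi against control numbered 11 to 13 with 1 library left out. The 1 of Rab7-labelled against control became 0 and 2 within the negative-score and positive-score libraries, and 1 with any library left out. The 6 between the RNAi groups became 13 with plain read totals, 12 with the covariate, 11 and 1 within the negative-score and positive-score libraries, and 5 to 7 with 1 library left out.

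Deviations of same-numbered libraries correlated at -0.16 to 0.30. Unlike-numbered ones were not compared, so pairing is undecided. Rab5 RNAi replicate 5 is the only library with its number, so the block also takes away its weight. With the replicate block, 6 (moody higher, the others lower), 4 (all lower) and 0 of the 8 genes were called in the 3 comparisons, 1946, 422 and 1169 of all genes, and 12, 2 and 8 barrier genes. Without that library and with no block, 5 and 3 of the 8 genes were called in Rab5 RNAi and in Rab7-labelled heads against control, and 1778 and 341 of all genes.

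Signs turned as follows. Within the positive-score libraries moody was -0.20 in Rab5 RNAi against control and -0.46 against Rab7-labelled, cold was -0.0047 against Rab7-labelled, and Lcch3 was -0.040 in Rab7-labelled against control. Within the negative-score libraries fabp was 0.084 in Rab5 RNAi and Gdh 0.090 in Rab7-labelled against control, and alrm, Eaat1, repo and CG9657 were -0.42, -0.046, -0.11 and -0.066 in Rab5 RNAi against Rab7-labelled. alrm in that comparison was also -0.023 with the replicate block, and -0.087 to 0.24 with 1 library left out, below 0 without Rab5 RNAi replicate 1 or 5 or Rab7-labelled replicate 1. NLaz in Rab7-labelled against control was -0.085 to 0.040 with 1 library left out, above 0 without Rab7-labelled replicate 2 or 4 or control replicate 4. Of 552 results of the 8 genes under alternatives, 481 stayed on their side of the threshold in the same direction, 19 lost a call, 43 gained one and 9 turned. No value of the 8 genes rested on fewer than 378 reads, and the number of libraries per group, 4 or 5, limits the tests.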
